A study of Mus musculus with 6 samples.

Results

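The clustered protocadherins are the 57 genes, of 53762 measured, whose symbols read Pcdha, Pcdhb, Pcdhga, Pcdhgb or Pcdhgc and a number, or Pcdhac1 or Pcdhac2. They comprise 13 alpha, 22 beta and 22 gamma genes, and the gamma genes divide by symbol into 12 gamma A, 7 gamma B and 3 gamma C genes. The members were taken by name, not by their values, but the gene family was chosen with earlier results of these data known. All 57 were found in the GENCODE M21 annotation of the mouse genome build GRCm38, on the plus strand of chromosome 18 between 36930184 and 37841873, with the alpha genes first, then the beta genes, then the gamma genes.

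Clustered protocadherins are cell-surface proteins of the cadherin superfamily that bind the same isoform on a neighbouring cell, and they are best known for giving neurons a cell-surface identity. Each alpha and gamma gene has its own promoter and its own large variable exon, which is spliced to constant exons shared by its cluster, whereas beta genes are single large exons without constant exons. The choice of promoter is known to involve looping to distant enhancers by CTCF and cohesin and silencing by DNA methylation and SMCHD1, and single cells usually use only some of the variable exons.

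RNA was sequenced from immortalized fibroblasts of mouse embryos, a cultured connective tissue cell, 24 hours after they were seeded in high-glucose medium. There were 3 wild-type libraries (WT) and 3 libraries from cells labelled as knockouts of PME-1 (KO). The targeted gene, Ppme1, encodes the enzyme that demethylates the catalytic subunit of protein phosphatase 2A. The comparison asks how expression differs between cells with and without PME-1. The titles give the groups, since the genotype entries of KO libraries 2 and 3 carry other numbers after PME. The labels name neither the clones nor the way the knockout and the immortalization were made, and they do not say that replicates came from separate cultures, so the spread behind each p-value is that among these libraries and could be technical.

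The libraries held 34450993 to 44116310 counts, and the members together held 9862 to 27785. Ppme1 (chromosome 7, 100326737 to 100372307) stood at 81.9 ± 4.22 CPM (read counts scaled to library size; SD, n = 3) in WT, against 17.4 ± 2.14 CPM in KO, or 4.72-fold lower (adjusted p = 0.000563 by edgeR with Benjamini-Hochberg adjustment over all genes tested). WT libraries carried Xist (431 ± 60.2 CPM) and 0 counts of the Y-linked Ddx3y, and KO libraries carried Ddx3y (63.0 ± 7.67 CPM) and little Xist (0.229 ± 0.0998 CPM), so sex and genotype cannot be told apart in any result given here. WT 1 and KO 1 stood apart from the other libraries of their groups. Counts of WT 2 and WT 3 differed with a chi-square of 12.7 per degree of freedom and those of KO 2 and KO 3 with 13.1. All other pairs gave 82.3 to 200. WT 1 was closer to KO 2 (90.1) and KO 3 (82.3) than to WT 2 (128) and WT 3 (115). KO 1 gave 121 and 129 with WT 2 and WT 3, and 137 and 118 with KO 2 and KO 3. All 12 fibroblast markers had counts, with Fap near 0 and Lum at 2.61 CPM in KO 1 and at 0.578 CPM or below elsewhere. Of 11 tested, 3 fell (Col1a1, Pdgfrb and S100a4) and 0 rose by edgeR, while Dcn and Thy1, not called, were higher in every KO library. Neuron markers, the cell type in which these genes are best known, were low: 14 of 18 had a count, their summed level ranged over 65.8 to 71.4 CPM in WT, against 82.8 to 98.7 CPM in KO, and Rbfox3, Snap25, Dcx and Gad1 were at 0 in all 6 libraries. Of 9 tested neuron markers, Gap43 rose 8.14-fold to 34.9 ± 0.607 CPM (adjusted p = 0.000563), Elavl4 rose to 0.374 CPM from 0 counts, and Map2 fell. Elavl4 passed the filter on low counts through the KO libraries only, so its higher KO value follows in part from the filter. Of 9 epithelial markers 8 had a count, Esrp1 was at 0 and Krt8 and Krt18 rose. The 9 markers summed to 9.16 to 32.1 CPM in WT and 128 to 148 CPM in KO. Of those not called, Cdh1 was at a mean of 0.267 CPM in WT and 0.103 CPM in KO, and Epcam at 0.641 and 0.675 CPM. Krt19, Cldn3, Cldn4 and Cldn7, also not called, had higher means in KO. The part of any other cell type in the results was not tested. Of these marker calls, those of Gap43 and Krt18 held whichever library was left out, and the others were lost in some omissions.

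Reads of the shared exons bear on the alpha and gamma values. In the annotation, 28.5% to 54.9% of the exon length of an alpha gene and 27.8% (Pcdhgc5) to 66.8% (Pcdhga4) of that of a gamma gene also belongs to other members. Beta genes share none, except 9.67% of Pcdhb21 and 6.88% of Pcdhb22, which overlap each other. How the authors' counting divided reads of shared exons is not given in the sources used here, so a single alpha or gamma gene's count is less certain than the sum over its cluster. The beta genes are similar in sequence, but at most 7.73% of the distinct 100-base stretches of a beta transcript also stand in another member. Levels of different genes are compared as CPM per kilobase (kb) of exclusive exon, the length that no other member shares. Shares of a group's counts are also given, and they depend on gene length as well as on level. In every library more genes had a value of 3 or of 4 than of 2 (in WT 1, 550, 694 and 455 genes), so low counts and the floor of 3 counts may not stand for single reads.

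Beta and gamma B transcripts were at lower levels in KO cells, gamma A and gamma C sums overlapped between the groups, and alpha transcripts were close to absent in both. Summed over the cluster, beta genes reached 43.5, 79.0 and 75.1 CPM in WT libraries 1 to 3 and 10.3, 5.79 and 6.11 CPM in KO libraries 1 to 3. The lowest WT library was thus above the highest KO library, and the ratio of means was 8.89 (65.9 ± 19.5 against 7.41 ± 2.53 CPM). Gamma B genes summed to 115, 188 and 176 CPM in WT and 17.3, 33.1 and 24.3 CPM in KO, again without overlap, a ratio of 6.41 (160 ± 39.3 against 24.9 ± 7.89 CPM). Gamma A genes summed to 77.6, 76.8 and 84.8 CPM in WT and 89.3, 69.9 and 54.4 CPM in KO. The KO values lay on both sides of the WT values (79.7 ± 4.43 against 71.2 ± 17.5 CPM). Gamma C genes summed to 224, 298 and 295 CPM in WT and 262, 193 and 205 CPM in KO, which also overlapped (272 ± 41.9 against 220 ± 37.1 CPM). All 57 members together were at 578 ± 102 CPM in WT against 323 ± 48.8 CPM in KO. These sums carry no test, and in such bulk samples fewer expressing cells and less RNA per cell cannot be told apart.

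**Figure D1:**
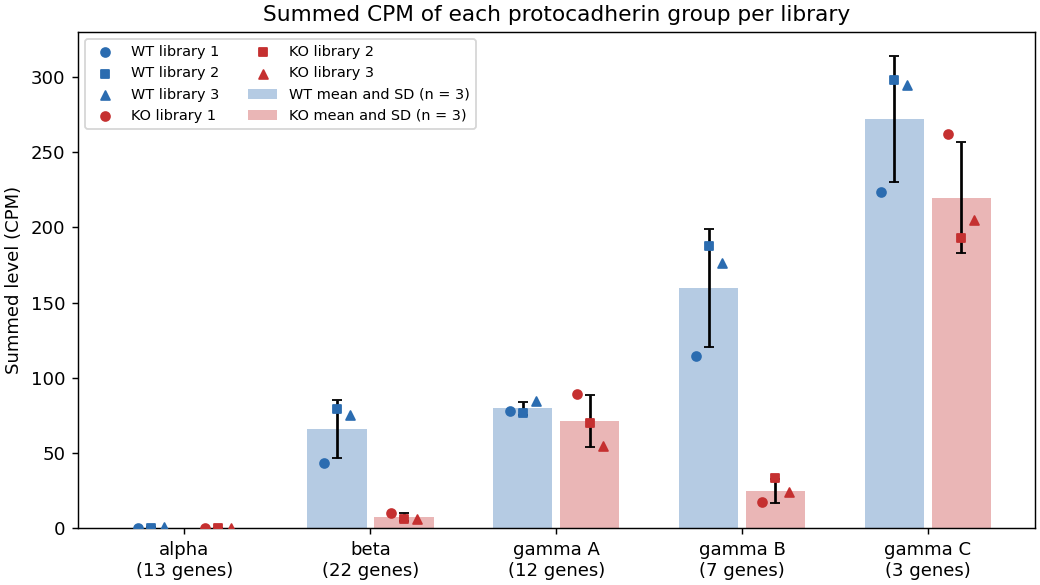
Summed CPM of the members of each protocadherin group (horizontal axis) per library; bars are means with SD (n = 3), points are libraries. Every WT point of the beta and gamma B groups lies above every KO point, whereas the gamma A and gamma C points overlap and the alpha sums are at 0.689 CPM or below.

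Of the 57 members, 33 passed the filter on low counts (11 beta and all 22 gamma genes) and 24 did not (all 13 alpha and 11 beta genes). By edgeR, 5 of the 33 fell in KO: Pcdhb16, Pcdhb17, Pcdhb22, Pcdhga3 and Pcdhgb7. None of the members rose (0 by edgeR and limma-voom, 2 at an unadjusted p under 0.05, beside 10.7% of all genes, and 2 by DESeq2, which called 7.85% of all genes higher). The 5 are 15.2% of the tested members, beside 3.86% of all 15223 genes tested that fell and 3.55% that rose (7.4% in either direction). In 11 of the 33 every KO library was below every WT library (33.3%, beside 15.4% of all genes tested), and in 2 every KO library was above (14.6% of all genes). The median log2 fold change (KO against WT) was -1.03 over the tested members and 0.01 over all genes tested. Pcdhb14 alone passed the filter through the WT libraries only, and for a member of that kind a lower KO value follows in part from the filter. Pcdhb16, Pcdhb18, Pcdhb20, Pcdhgb1, Pcdhga2 and Pcdhga11 were above the filter's level (0.246 CPM) in all WT libraries but not in every KO library. The filter may therefore bear on their values too. DESeq2 called 9 members lower (7.96% of all genes) and limma-voom called 8 (4.02%).

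The last genes of the beta cluster held most of its counts. Pcdhb16 to Pcdhb22, a stretch chosen after the values were seen, held 93.7% to 96.9% of beta counts in WT libraries and 74.5% to 78.8% in KO libraries. Their sum came to 62.4 ± 17.6 CPM in WT, against 5.65 ± 1.89 CPM in KO, while Pcdhb1 to Pcdhb15 summed to 3.46 ± 1.88 and 1.76 ± 0.656 CPM. Pcdhb22 had the highest count of the cluster in all 6 libraries, 25.5% to 48.7% of beta counts. Pcdhb1 was at 0 in every library, which allows up to 0.0689 to 0.0881 CPM per library (3 counts, counting error only).

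Pcdhb22 (ENSMUSG00000073591.4, 37517871 to 37524479) was the highest beta gene per length, at 4.89 CPM per kb in WT. It was measured at 21.2, 32.9 and 36.2 CPM in WT libraries and 3.57, 1.48 and 2.11 CPM in KO libraries. No KO library came near the lowest WT library. The level fell 12.6-fold (30.1 ± 7.91 to 2.39 ± 1.07 CPM; log2 fold change -3.66, SE 0.39, adjusted p = 0.0036 by edgeR), and the call held whichever library was left out.

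Pcdhb17 (ENSMUSG00000046387.5, 37484795 to 37489454), the next by length-scaled level, was at 8.49, 19.8 and 19.6 CPM in WT and 1.78, 0.586 and 1.41 CPM in KO. WT 1 was the lowest of the WT libraries and still above all KO libraries. Its level fell 12.7-fold (16 ± 6.47 to 1.26 ± 0.613 CPM; log2 fold change -3.67, SE 0.52, adjusted p = 0.0107 by edgeR). Without WT 3 its adjusted p was 0.0528, and without KO 3 it was 0.0598.

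Pcdhb16 (ENSMUSG00000047910.6, 37477814 to 37483038) lay close to the threshold. It was at 1.33, 1.83 and 2.13 CPM in WT and 0.517, 0.446 and 0.176 CPM in KO, with no overlap. The level fell 4.59-fold (log2 fold change -2.2, SE 0.51, adjusted p = 0.0495 by edgeR), and leaving out any 1 of the 6 libraries put its adjusted p between 0.0588 and 0.183.

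Pcdhb20 was at 2.36, 4.25 and 5.53 CPM in WT and 1.06, 0.305 and 0.206 CPM in KO, a 7.67-fold difference between groups that did not overlap (adjusted p = 0.0521 by edgeR, 0.000336 by DESeq2). Without KO 1, its highest KO library, the difference was 15.6-fold with an adjusted p of 0.0145 by edgeR, and the other 5 omissions gave no call (up to 0.18). Its neighbour Pcdhb18 had a like pattern, 1.69, 3.33 and 5 CPM against 0.880, 0.211 and 0.206 CPM (adjusted p = 0.0613 by edgeR). Pcdhb19, between them, had 255 and 424 counts in WT 1 and WT 2 but 0 in WT 3, and 0, 19 and 24 counts in KO. The 0 in WT 3 placed that library below 2 of the KO libraries (adjusted p = 0.267 by edgeR). Pcdhb21 was at 0 in WT 1, KO 1 and KO 3. Pcdhb18, Pcdhb19 and Pcdhb21 were named after their values were seen. Of the 11 tested beta genes, 10 had a negative log2 fold change, with a median of -2.44. The exception was Pcdhb15, at 0.399 CPM or below in every library.

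**Figure D2:**
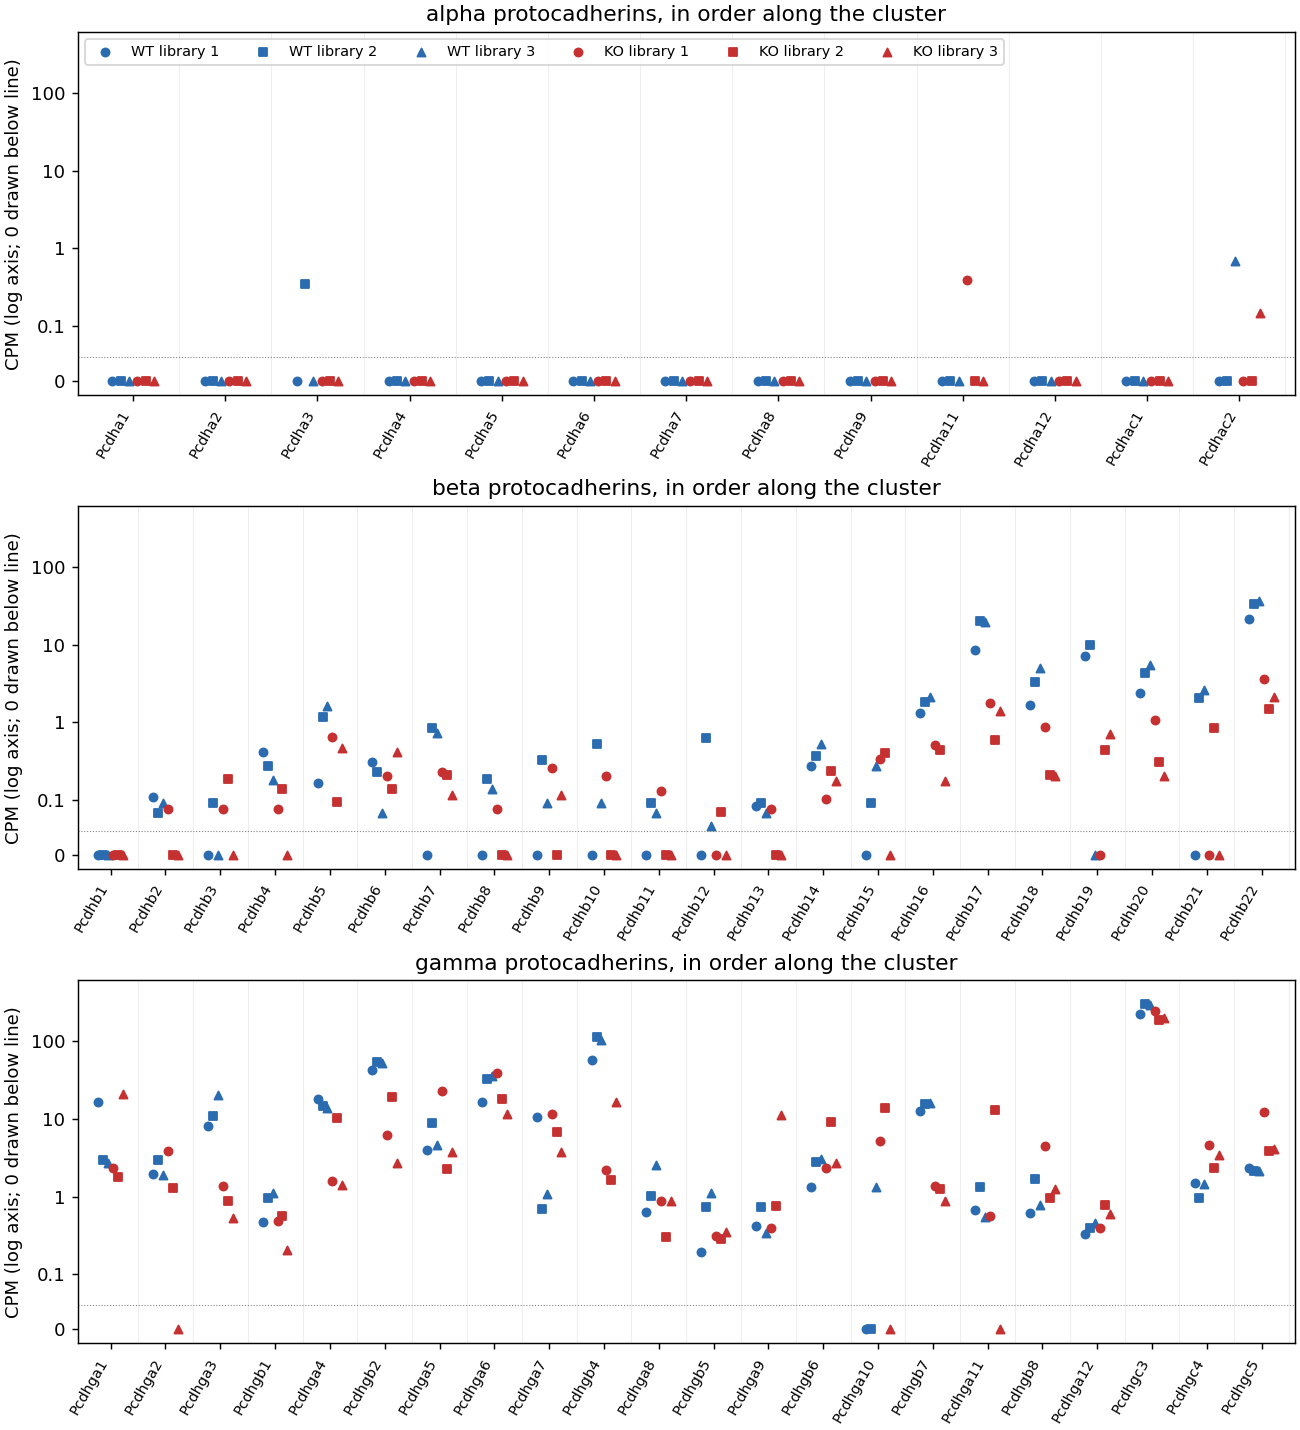
CPM of every member (log axis, values of 0 drawn below the dotted line) in WT libraries (blue) and KO libraries (red), with genes in their order along each cluster; the marker shape gives the library number. In the beta panel Pcdhb17 and Pcdhb22 have the highest WT values, and in the gamma panel Pcdhgc3, which is also the highest per length, lies at 187 to 295 CPM.

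Gamma B genes interleave with gamma A genes along the gamma cluster. In WT the highest per length were Pcdhgb4 (25.2 CPM per kb), Pcdhgb2 (17.9 CPM per kb) and Pcdhgb7 (5.61 CPM per kb), and 1 of the 7, Pcdhgb7, passed the test. Pcdhgb7 (ENSMUSG00000104063.1, 37751600 to 37841873) was at 12.6, 15.3 and 15.8 CPM in WT and 1.37, 1.24 and 0.881 CPM in KO. Its replicates lay closer together than those of the other called members, and the groups were far apart. The level fell 12.4-fold (14.6 ± 1.70 to 1.17 ± 0.254 CPM; log2 fold change -3.64, SE 0.25, adjusted p = 0.00104 by edgeR), and the call held whichever library was left out.

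Pcdhgb4 (ENSMUSG00000103585.1, 37720369 to 37841870), the gamma gene with the highest WT level per length after Pcdhgc3, was at 57.0, 112 and 103 CPM in WT. In KO it was at 2.2, 1.62 and 16.2 CPM. KO 3 was the high library of the KO group, yet it was below every WT library. The difference was 13.6-fold (log2 fold change -3.77, SE 0.92) with an adjusted p of 0.0588 by edgeR, 0.00441 by DESeq2 and 0.0139 by limma-voom. Without KO 3 it was 47.0-fold with an adjusted p of 0.00796 by edgeR, and the other 5 omissions gave no call (up to 0.171).

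Pcdhgb2 (ENSMUSG00000102748.1, 37689828 to 37841873) was at 42.4, 54.3 and 51.7 CPM in WT and 6.21, 19.3 and 2.73 CPM in KO. Here KO 2 was the high library of the KO group, not KO 3. The 5.24-fold difference had an adjusted p of 0.0807 by edgeR (log2 fold change -2.39, SE 0.65), and without KO 2 it was 10.9-fold with an adjusted p of 0.0204, while the other 5 omissions gave no call (up to 0.219). The other gamma B genes were all below 10 CPM. Pcdhgb6 and Pcdhgb8, an annotated polymorphic pseudogene, had positive log2 fold changes of 0.96 and 1.10, and neither passed the test. That of Pcdhgb8 was -0.15 without WT 1 and KO 1.

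Gamma A genes showed no common direction: 5 of the 12 had negative and 7 positive log2 fold changes, and their median of 0.35 turned to -0.28 without KO 1. The 1 gamma A gene that passed the test, Pcdhga3 (ENSMUSG00000104346.1, 37674307 to 37841873), was at 7.96, 10.8 and 20.3 CPM in WT and 1.35, 0.868 and 0.529 CPM in KO. The groups did not overlap. The level fell 14.2-fold (13.0 ± 6.45 to 0.914 ± 0.410 CPM; log2 fold change -3.82, SE 0.50, adjusted p = 0.00772 by edgeR). Without KO 2 the adjusted p was 0.0534.

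By the mean of all 6 libraries, the gamma A genes highest per length were Pcdhga6, Pcdhga4 and Pcdhga5. In WT alone Pcdhga3 (5.01 CPM per kb) was above Pcdhga5 (2.29 CPM per kb). Pcdhga6 (37707039 to 37841873) was at 16.6, 32.5 and 35.1 CPM in WT and 38.5, 18 and 11.6 CPM in KO. Each group spanned much of the other (adjusted p = 0.768 by edgeR), and the difference changed sign without KO 3. Pcdhga4 (37685210 to 37841873) was at 17.9, 14.4 and 13.9 CPM in WT and 1.58, 10.3 and 1.41 CPM in KO. It was lower in every KO library but only slightly so in KO 2 (adjusted p = 0.232 by edgeR), and without KO 2 the difference was 10.2-fold with an adjusted p of 0.00891, while the other 5 omissions gave no call (up to 0.442). Pcdhga5 (37694380 to 37841873) was at 3.97, 8.92 and 4.61 CPM in WT and 22.8, 2.23 and 3.79 CPM in KO. Only KO 1 was high, and the sign of the difference turned without it (adjusted p = 0.686 by edgeR with all libraries).

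Gamma C genes lie at the end of the cluster and are known, in neurons, for being expressed without the random choice made among the other isoforms. Pcdhgc3 (ENSMUSG00000102918.1, 37806364 to 37841873) was the highest member per length in both groups, at 79.5 CPM per kb in WT and 62.0 CPM per kb in KO. It was at 220, 295 and 291 CPM in WT and 245, 187 and 197 CPM in KO. WT 1 fell within the KO range, and the difference was 1.28-fold (log2 fold change -0.36, SE 0.17, adjusted p = 0.27 by edgeR). Without WT 1 and KO 1 together it was 1.53-fold with an adjusted p of 4.05e-06.

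Pcdhgc4 and Pcdhgc5 were at low levels and higher in every KO library. Pcdhgc4 (37815079 to 37841873) was at 1.47, 0.970 and 1.47 CPM in WT and 4.63, 2.30 and 3.41 CPM in KO (2.64-fold, log2 fold change 1.40, SE 0.37, adjusted p = 0.0754 by edgeR). Pcdhgc5 (37819513 to 37841873) was at 2.36, 2.13 and 2.16 CPM in WT and 12.3, 3.80 and 4.11 CPM in KO (3.04-fold, log2 fold change 1.61, SE 0.50, adjusted p = 0.114 by edgeR). Neither passed the edgeR threshold, and DESeq2 gave adjusted p-values of 0.0065 and 0.0159. Every KO value of both genes was above every WT value, with KO 1 the highest. Without KO 1 the log2 fold change of Pcdhgc5 was 0.84.

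The makeup of gamma transcripts differed between the groups in these libraries. Pcdhgc3 held 52.9%, 52.4% and 52.4% of gamma counts in WT libraries and 66.5%, 63.1% and 69.6% in KO libraries. The WT shares lay within a percentage point and below all KO shares. Gamma B genes held 30.9% ± 3 in WT and 8.16% ± 3.27 in KO, and gamma A genes 15.9% ± 2.55 and 22.4% ± 2.76 (SD, n = 3 each). These are shares of counts, which depend on how shared exons were divided, and they carry no test.

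The gene with the most counts in the gamma B group was Pcdhgb4 in all 3 WT libraries and KO 3, and Pcdhgb2 in KO 1 and KO 2. In the gamma A group it was Pcdhga4 in WT 1, Pcdhga1 in KO 3 and Pcdhga6 in the other 4. The gene with the most counts thus differed among replicates of the same group.

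**Figure D3:**
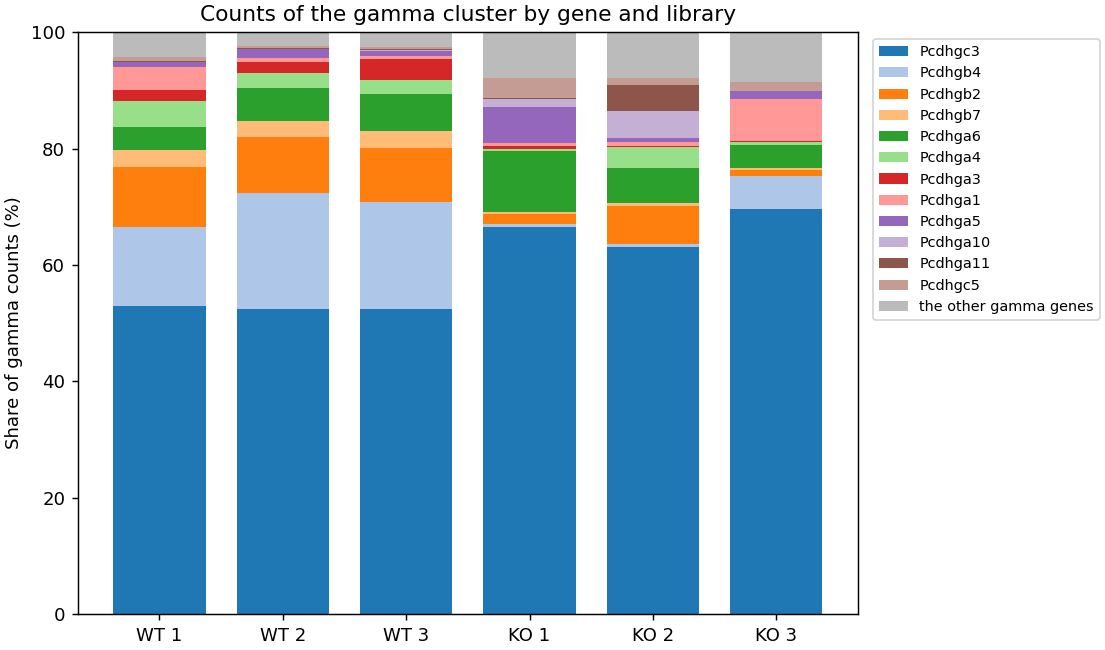
Share of the gamma cluster's counts (vertical axis, percent) held by each of 12 genes and by the others together in each of the 6 libraries. The Pcdhgc3 segment takes 52.4% to 52.9% in WT and 63.1% to 69.6% in KO, and the Pcdhgb4 and Pcdhgb2 segments are smaller in each KO library than in any WT library.

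Alpha transcripts were near the limit of detection. Of the 13 genes, 10 were at 0 in every library, and the highest count of any was 30. WT libraries held 0, 15 and 30 alpha counts, and KO libraries 15, 0 and 5. Each library with alpha counts had them on a single gene: Pcdha3 in WT 2 (15 counts), Pcdhac2 in WT 3 (30 counts) and KO 3 (5 counts), and Pcdha11, a symbol that stands for 2 annotated genes, in KO 1 (15 counts). A difference between WT and KO was not detectable at this depth.

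**Figure D4:**
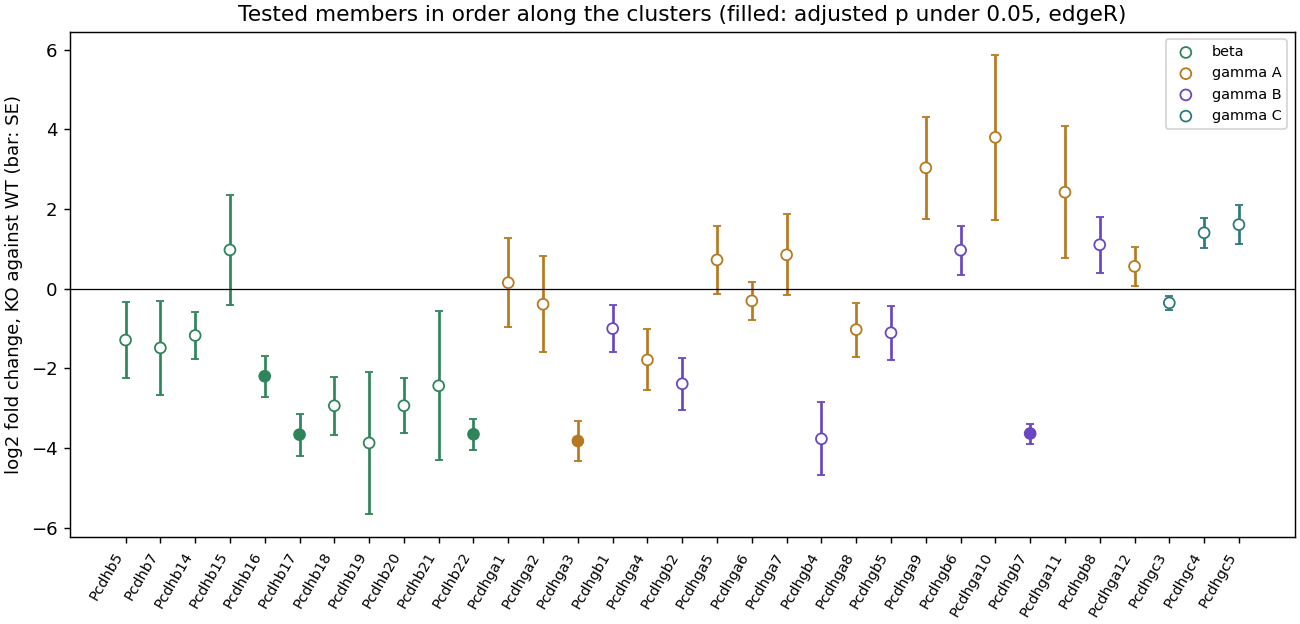
Log2 fold change of KO against WT (vertical axis, bars are SE from edgeR) of the 33 tested members in order along the clusters, coloured by group; filled points had an adjusted p under 0.05. All 5 filled points lie below 0, between -3.82 (Pcdhga3) and -2.2 (Pcdhb16), and the open gamma A points lie on both sides of 0 with long bars.

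Replicates of single beta, gamma A and gamma B genes spread more widely than those of the median gene. The median SD of log2 CPM over all tested genes was 0.24 in WT and 0.26 in KO. Over the gamma A genes it was 0.62 in WT and 1.67 in KO, while the SD of the gamma A sum was 0.08 and 0.36. Beta genes gave 0.78 and 1.07 (their sum 0.48 and 0.46), and gamma B genes 0.62 and 1.07 (their sum 0.39 and 0.47). A sum over genes varies less than single genes by averaging alone. The members were not matched with other genes of like level, and counting error adds to the SD of members with few counts. The 3 gamma C genes gave 0.24 in WT, no more than all genes, and 0.50 in KO. Without WT 1 and KO 1, edgeR called 12 members lower (36.4% of 33) and 3 higher (9.09%), beside 24.6% and 23.3% of 15449 genes tested; Pcdhgb2, Pcdhgb4 and Pcdhga4 were not among the calls.

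Genes near the clusters were compared next, to set the members beside their surroundings. Of 64 other genes annotated between the members or within 500 kb of them, 32 were tested, with a median log2 fold change of -0.11. By edgeR 0 fell and 1 rose, beside 3.86% and 3.55% of all genes, so these counts are near the shares over all genes. An unadjusted p under 0.05 was found for 6 (22.2% of all genes), and DESeq2 called 4 (15.8% of all genes) and limma-voom 0 (7.74%). The 1 gene, Arap3, which encodes a GTPase-activating protein, lies past the gamma cluster (37972628 to 37998969). It was at 0.693, 1.76 and 1.08 CPM in WT and 11.5, 4.97 and 4.29 CPM in KO, with all KO libraries above WT (5.87-fold, adjusted p = 0.036 by edgeR). Leaving out any 1 library put its adjusted p between 0.0522 and 0.155. Taf7, a subunit of the general transcription factor TFIID that lies between the beta and gamma clusters, was at 5.68 ± 0.355 CPM in WT against 5.17 ± 0.465 CPM in KO (adjusted p = 0.753). Diaph1, a formin just past the gamma cluster, was at 129 ± 10.9 and 111 ± 24.7 CPM (adjusted p = 0.523), and the sign of its difference turned without WT 1 and KO 1 (log2 fold change 0.0053). Taf7 and Diaph1 were named for their position after their values were seen.

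Genes for the known regulators of these promoters were examined as 2 lists. None of 11 cohesin and CTCF genes passed the edgeR test (0 of 11, 1 at an unadjusted p under 0.05, 0 by DESeq2 and by limma-voom; median log2 fold change -0.07). None of 21 methylation and silencing genes did either (0 of 21, 5 at an unadjusted p under 0.05, 4 lower by DESeq2, 0 by limma-voom; median -0.19). An unadjusted p under 0.05 was found for 22.2% of all genes tested. Of all genes, edgeR called 7.4%, DESeq2 15.8% (7.96% lower) and limma-voom 7.74%. At these shares lists this short would hold few calls, so the counts say little about the regulators. Without WT 1 and KO 1, edgeR called 1 cohesin and CTCF gene lower and 5 higher. In that setting it called 9 methylation and silencing genes lower and 5 higher, beside 24.6% and 23.3% of all genes. Ctcf (adjusted p = 0.0342 by edgeR) and Smchd1 (0.0204) were among those then called higher. Ctcf, which encodes the insulator protein, was at 128 ± 10.5 CPM in WT against 124 ± 24.5 CPM in KO (adjusted p = 0.901). Rad21, a cohesin subunit, was at 573 ± 22.3 and 545 ± 13.0 CPM (adjusted p = 0.741). The WT and KO libraries overlapped for both genes. Smchd1, the chromosomal silencing protein, was at 194 ± 39.8 and 179 ± 46.8 CPM (adjusted p = 0.833), and Dnmt3b, a DNA methyltransferase, was at 3.12 ± 0.428 and 2.97 ± 0.519 CPM (adjusted p = 0.911). The sign of the Ctcf, Smchd1 and Dnmt3b differences turned when single libraries were left out, and that of Ctcf also under other scalings. RNA levels do not show the activity or binding of these proteins.

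A list of 22 genes for protocadherin partners and signalling proteins was chosen with earlier results of these data known, which limits any comparison with all genes. Of the 22 genes, 6 fell and 1 rose by edgeR, beside 3.86% and 3.55% of all genes, with a median log2 fold change of -0.23. An unadjusted p under 0.05 was found for 10 (22.2% of all genes), and DESeq2 called 9 lower and 1 higher (15.8% of all genes) and limma-voom 6 (7.74%). Ret, a receptor tyrosine kinase that binds protocadherins, was at 18.1, 15.6 and 13.7 CPM in WT and 2.51, 2.23 and 1.26 CPM in KO. The groups were far apart, and the level fell 7.88-fold (log2 fold change -2.98, SE 0.30, adjusted p = 0.00314 by edgeR). Adam10, the protease that sheds the ectodomains of gamma protocadherins, was at 332, 378 and 395 CPM in WT and 157, 164 and 149 CPM in KO. Its level fell 2.35-fold (log2 fold change -1.23, SE 0.11, adjusted p = 0.00218 by edgeR), and Adam10 lies on chromosome 9 (70678997 to 70780229). Both genes separated the groups in every library and kept their calls whichever library was left out.

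Marcks, a membrane-bound actin regulator linked to gamma protocadherin signalling, fell 2.40-fold from 271 ± 75.2 to 113 ± 17.0 CPM (adjusted p = 0.0255 by edgeR). Rhoa, a small GTPase of the cytoskeleton, fell 1.55-fold from 603 ± 28.6 to 389 ± 18.3 CPM (adjusted p = 0.0169). Wasf1, a subunit of the WAVE complex that drives actin branching, fell 1.82-fold (adjusted p = 0.0413), and the kinase gene Gsk3b fell 1.47-fold (adjusted p = 0.0422). These 4 calls depended on single libraries: leaving out 1 library ended the call of Marcks and Rhoa in 4 of 6 cases, that of Wasf1 in 5 of 6 and that of Gsk3b in 6 of 6. The gene that rose, Cyfip2, was near or below 1 CPM in both groups (0.241 ± 0.0426 and 1.14 ± 0.401 CPM, adjusted p = 0.0442), and its call ended in 6 of 6 cases.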

How the data were processed

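The authors deposited raw read counts per gene symbol, 1 table per library, for 6 RNA libraries made with a strand-keeping kit, per the labels' protocols. The submitters' processing notes name Trim Galore 0.6.6, HISAT2 2.2.1 and the human build hg38, while the gene symbols are those of the mouse. How reads were counted (program, strand, annotation) is not given in the sources used here, so positions and exon lengths were taken from the GENCODE M21 annotation of GRCm38, which lists 92.9% of the symbols.

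The test was the robust quasi-likelihood test of edgeR 4.0.16 (R 4.3.3) after filterByExpr on the groups and TMM scaling, with p-values adjusted over 15223 genes by Benjamini-Hochberg and called under 0.05; all adjusted p-values are edgeR's unless another tool is named. CPM values use TMM factors, and the SE is the log2 fold change over the square root of F. A floor of 3 counts is 0.0689 to 0.0881 CPM, for counting error only. Values per library are given for called members that average 1 CPM or more and for the 3 highest per exclusive kb in each group. Of the neighbours within 500 kb and the 3 pathway lists, those past the threshold that average at least 1 CPM are named, with Ctcf, Rad21, Smchd1 and Dnmt3b. The members and lists were chosen with earlier results of these data known. Alternatives were DESeq2 1.42.0, limma-voom (limma 3.58.1), other scaling factors, other filters, the replicate number as a block, and libraries left out. The fit was tested on simulated data, where it recovered 27 of 100 2-fold changes and 91 of 100 4-fold changes. Of its 124 calls there, 6 were false. A gene that was not called may thus still have changed, by 2-fold or by more. Among the members, 5 were called lower, but Pcdhgb4 (13.6-fold, adjusted p = 0.0588 by edgeR) and Pcdhb18 (7.68-fold, adjusted p = 0.0613) were not. How often the fit calls genes whose replicates spread as widely as those of the members was not tested.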

Additional observations from a re-analysis of the deposited data

How the results depend on the processing

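With all libraries, edgeR called 1127 genes, and DESeq2 called 2406. Members called lower numbered 5 by edgeR, 9 by DESeq2 and 8 by limma-voom, and members called higher 0, 2 and 0. Neighbours called numbered 1, but 4 by DESeq2, 0 by limma-voom and 0 among genes averaging 5 CPM or more, and pathway genes 7, but 14 by DESeq2. Leaving out 1 library gave 332 to 1216 genes, 3 to 6 members lower, 0 to 1 higher, 0 to 1 neighbours and 2 to 6 pathway genes. Leaving out WT 1 and KO 1 together gave 7408 genes, 12 members lower, 3 higher, 17 neighbours and 31 pathway genes. In that setting 24.6% of all genes tested were called lower and 23.3% higher. The replicate numbers are not said to mark a shared batch. Same-numbered libraries deviated in opposite ways (correlations -0.51, -0.31 and -0.22), and so did WT 2 with KO 3 (-0.21) and WT 3 with KO 2 (-0.18). WT 1 with KO 2 and KO 3, and KO 1 with WT 2 and WT 3, gave 0.30 to 0.39. Whether libraries shared a batch was not tested. With the replicate block 8 genes, 0 members lower, 0 neighbours and 0 pathway genes were called, and the median log2 fold change was -3.16 for beta and -0.16 for gamma A genes. Among genes averaging 5 CPM or more, which are fewer, that median was -3.62 for beta (-2.44 in the report), -3.60 for gamma B (-1.11) and -0.32 for gamma C genes (1.40). For gamma A genes it was -0.32 by limma-voom, -0.25 without WT 1 and KO 1, and -0.28 to 0.49 with 1 library left out. Leaving out 1 library gave -3.02 to -1.89 for beta, -1.53 to -0.77 for gamma B and 0.84 to 1.64 for gamma C genes. Among genes chosen by the naming rule, log2 fold changes turned sign for 5; Pcdhga1, Pcdhga2, Pcdhga11, Pcdhgb8 and Diaph1, outside it, also turned under some omissions. With 1 library left out, Pcdhga5 ranged from -0.96 to 1.22, Pcdhga6 from -0.93 to 0.026, Ctcf from -0.14 to 0.10, Smchd1 from -0.27 to 0.081 and Dnmt3b from -0.20 to 0.043. Without WT 1 and KO 1 together Pcdhga5 was at -1.18, Ctcf at 0.17 and Smchd1 at 0.26. Ctcf was at 0.013 with upper-quartile factors and 0.0074 with library sizes alone. Of the values with no test, the log2 ratio of sums (KO to WT) ranged from -3.47 to -3.00 for beta and from -2.94 to -2.47 for gamma B genes with 1 library left out. Other than as stated, the causes were not tested. Depth limits the alpha genes and Pcdhb1 to Pcdhb15.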

Other observations

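Several gamma A genes were high in 1 or 2 libraries only, with different libraries for different genes, and were named after their values were seen. Pcdhga1 reached 16.6 CPM in WT 1 and also 20.6 CPM in KO 3, and was at 1.81 to 2.98 CPM in the other 4 libraries. Pcdhga9 was at 11.2 CPM in KO 3 and at 0.344 to 0.751 CPM elsewhere. Pcdhga10 was at 5.10 CPM in KO 1, 13.8 CPM in KO 2 and 1.33 CPM in WT 3, and at 0 in the other 3. Pcdhga11 was at 13.0 CPM in KO 2 and at 0 in KO 3. None of these genes passed the edgeR test. With 1 library left out, the ratio of WT to KO ranged from 0.349 to 3.57 for Pcdhga1 and from 0.126 to 2.86 for Pcdhga11.

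A count of 0 beside at least 50 counts in another library of the same group occurred in 3 of the 26 members that reached 50 counts in WT (Pcdhb19, Pcdhb21 and Pcdhga10), beside 0.412% of 12866 genes that did. In KO it occurred in 3 of 20 members (Pcdhga2, Pcdhga10 and Pcdhga11), beside 0.539% of 13163 genes. The part of the counting in these values was not tested.

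The long noncoding RNA 3222401L13Rik, which ends just before Pcdhga1, was at 2.14, 1.85 and 3.08 CPM in WT and 0.673, 0.844 and 0.264 CPM in KO, without overlap (adjusted p = 0.0677 by edgeR, 0.00337 by DESeq2). It was named after its values were seen, and 15.4% of all genes tested had every KO library below every WT library. The 3 annotated read-through genes that span the clusters were at 0 in every library.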
